A study of Rattus norvegicus with 25 samples.

Results

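A set of 10 cytosolic heat shock genes was followed by name through the gene count table of a rat brain injury study: the small heat shock proteins Hspb1, Hspb8 and Cryab, the HSP70 and HSP110 family genes Hspa8, Hspa4 and Hsph1, the J-domain genes Dnaja1 and Dnajb1, and the HSP90 genes Hsp90aa1 and Hsp90ab1. All 10 were among the 34322 genes listed, and all 10 passed the filter on low counts that left 21064 genes for testing. The libraries were polyA RNA from the hippocampus of male Sprague-Dawley rats, adults of 6 to 7 weeks, in 5 groups of 5. Vehicle-sham animals had a sham operation and vehicle, and Vehicle-CCI animals had controlled cortical impact (CCI), in which a piston strikes the exposed cortex above the hippocampus, and vehicle. TD-CCI, TCF-CCI and TNF-CCI add to the impact a supplement: thymus in TD-CCI, a cytosolic factor of thymus in TCF-CCI and a nuclear factor of thymus in TNF-CCI, per the labels. TNF thus names a supplement here, not the cytokine. For TCF-CCI the impact is stated in the source name only. No sham group received a supplement, so in those 3 groups injury and supplement cannot be told apart against sham. The sources used here give neither dose nor time after injury, nor which hemisphere was sampled.

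Heat shock proteins are chaperones, which bind unfolded or partly folded proteins. Small heat shock proteins hold such clients without using ATP, HSP70 proteins bind and release them in an ATP cycle that J-domain proteins start and nucleotide exchange factors end, and HSP90 finishes the folding of kinases, steroid receptors and other signalling proteins. Several members are induced through heat shock factor 1, which binds inverted repeats of the letters GAA and TTC, called heat shock elements. In brain, Hspb1 is known as a gene of reactive astrocytes, Cryab as a gene of oligodendrocytes and other glia, and the chaperones Hspa8, Hsp90aa1 and Hsp90ab1 as abundant in neurons.

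Heat shock elements were looked for in the promoters because they are the letters the members could share. RefSeq promoter sequences on GRCr8 were at hand for 8 of the 10 members, all but Cryab and Hsp90aa1. In the 250 bases before the start site, GAANNTTC or TTCNNGAA (each is its own reverse complement, so both strands are covered, and the motifs can overlap in a longer repeat) was found in 6 of the 8, against 13.5% of all 33469 promoters. The longer repeats, in which NNGAA or NNTTC follows the first or second motif in turn, were found in Hspa8 and Hsph1, against 0.663% of all promoters. The stretches that hold a match follow, with the matched letters in capitals, read 5′ to 3′ on the strand of the gene.
Hspb1, chr12:26432383-26432450, minus strand: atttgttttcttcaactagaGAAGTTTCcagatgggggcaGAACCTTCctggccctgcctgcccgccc
Hspb8, chr12:45837265-45837307, plus strand: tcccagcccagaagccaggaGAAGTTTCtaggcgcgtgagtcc
Hspa8, chr8:50080281-50080491, plus strand: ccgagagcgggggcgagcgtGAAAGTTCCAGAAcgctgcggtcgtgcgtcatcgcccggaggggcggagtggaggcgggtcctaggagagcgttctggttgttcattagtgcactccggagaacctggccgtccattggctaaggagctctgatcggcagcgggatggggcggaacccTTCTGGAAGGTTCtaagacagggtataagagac
Hsph1, chr12:10427243-10427364, plus strand: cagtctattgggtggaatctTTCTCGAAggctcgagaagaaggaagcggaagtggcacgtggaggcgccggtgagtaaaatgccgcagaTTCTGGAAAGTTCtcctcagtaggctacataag
Dnaja1, chr5:60638203-60638250, plus strand: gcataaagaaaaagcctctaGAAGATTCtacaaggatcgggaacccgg
Dnajb1, chr19:41431142-41431172, minus strand: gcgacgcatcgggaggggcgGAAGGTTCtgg
No match was found in the windows of Hsp90ab1 and Hspa4, which says only that these letters are not in those windows. Hspa8 held a longer repeat at each end of its stretch, and Hspb1 held the short motif at 2 places.

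Library totals ran from 27.3 M to 44.9 M counts (M for 10 to the power 6), with a median of 32.8 M, and the members took between 0.349% and 0.667% of a library. Among the sham libraries the share of counts from mitochondrial ribosomal RNA was 6.37%, 25.6%, 17.3%, 6.58% and 2.18% in replicates 1 to 5, so Vehicle-sham 2 and Vehicle-sham 3 stood apart. Many fold changes over sham moved when these libraries were left out, and values without 1 or both of them are given beside the members' results. The labels do not say that each library came from its own animal, so p-values measure the spread between libraries, which may in part be technical. Neuron markers summed to between 2589 and 8185 CPM (counts scaled to a common library size by the trimmed mean of M values, TMM) over the 25 libraries. Markers of the neighbouring thalamus summed to between 73.9 and 364 CPM.

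Levels of different genes were compared per kilobase of the deposited gene length (CPM per kb), as means over 25 libraries. Hsp90aa1, the stress-responsive isoform of HSP90, was the most abundant at 986 ± 307 CPM per kb (SD), and Hspa8, the constitutive HSP70 also known as Hsc70, followed at 521 ± 137. Hsp90ab1, the constitutive HSP90 isoform, had 174 ± 53.3 and Dnaja1, a J-domain partner of HSP70, 165 ± 41.8. Hsph1, the HSP110 exchange factor, had 46.0 ± 10.9 and its relative Hspa4 43.3 ± 7.95. Cryab, or αB-crystallin, had 20.4 ± 5.29, Dnajb1, the classical HSP40, 11.5 ± 2.69, Hspb8 9.05 ± 2.97 and Hspb1, also called HSP25 or HSP27, 8.87 ± 7.46. In this order the ranges over libraries did not overlap between Hspa8 and Hsp90ab1, nor between Dnaja1 and Hsph1. Every other neighbouring pair overlapped, among them Hsp90ab1 and Dnaja1, of which the first was higher in 15 of 25 libraries, and Hspb8 and Hspb1, of which the first was higher in 16 of 25. By CPM, Hsp90aa1 ranked 9th and Hspa8 45th of all genes, while Hspb1 ranked 11831st.

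**Figure D1:**
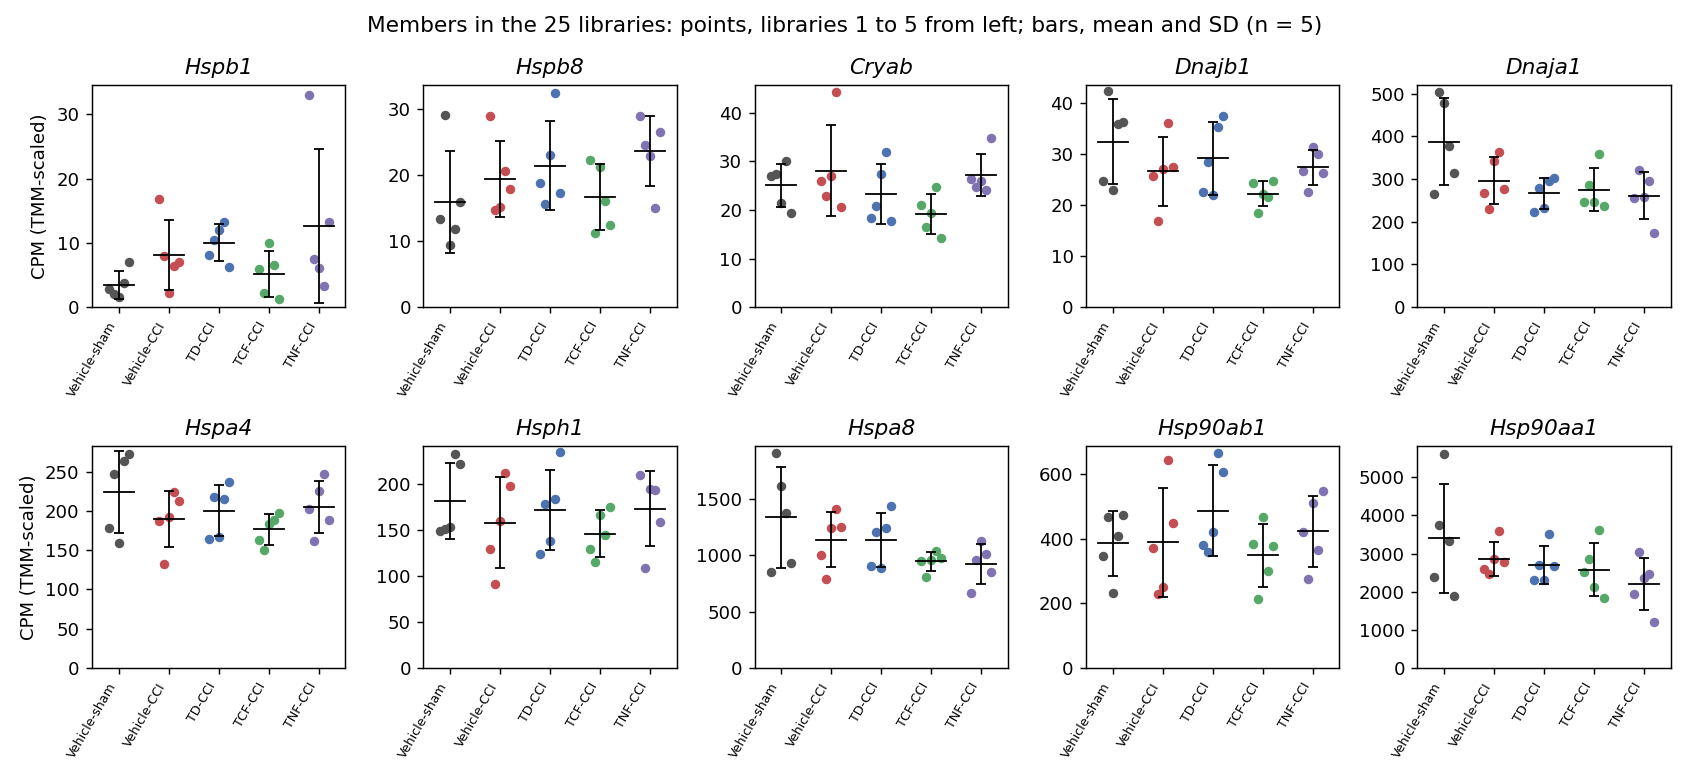
CPM of each member (y axis, TMM-scaled, starting at 0) in the 5 groups (x axis), with 1 point per library in replicate order and bars for the mean and SD of 5 libraries. Hspb1 reaches 33.0 CPM in TNF-CCI 1 and lies between 1.62 and 7.10 in sham. The 20 Dnaja1 points of the CCI groups all lie below the sham mean of 388 CPM, which includes 504 and 477 CPM in Vehicle-sham 2 and 3.

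The small heat shock gene Hspb1 (chromosome 12, 20794014 to 20795675 on mRatBN7.2), whose product binds unfolded proteins and actin, had the largest fold change over sham among the members. In Vehicle-sham 1 to 5 it had 2.88, 2.05, 1.62, 3.81 and 7.10 CPM. The Vehicle-CCI libraries had 16.9, 8.03, 2.25, 6.37 and 7.04 CPM, and the TD-CCI libraries 8.19, 10.4, 12.1, 13.3 and 6.24 CPM. The TCF-CCI libraries had 5.89, 2.25, 10.0, 6.57 and 1.20 CPM, and the TNF-CCI libraries 33.0, 7.44, 6.16, 3.25 and 13.3 CPM. Levels were therefore spread widely within groups, with a single high library in Vehicle-CCI and in TNF-CCI, and 10 of the 20 CCI libraries lay above every sham library while 1 lay below them all. Averaged against sham, the 4 CCI groups gave a log2 fold change of 1.28 ± 0.49 (SE) from means of 8.99 and 3.49 CPM, which did not pass (edgeR quasi-likelihood test, unadjusted p = 0.0152, Benjamini-Hochberg adjusted p = 0.107). Without Vehicle-sham 2 and Vehicle-sham 3 it was 0.91 ± 0.59 (adjusted p = 0.479, edgeR).

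Hspb8 (chromosome 12, 40176405 to 40205002), which with the cofactor Bag3 sends misfolded proteins to autophagy, had 13.4, 29.0, 9.40, 11.8 and 15.9 CPM in sham. Over the 20 CCI libraries its lowest, median and highest values were 11.3, 19.6 and 32.4 CPM. Only 1 of those libraries lay above every sham library, because Vehicle-sham 2 was itself high. On the log2 scale CCI over sham was 0.34 ± 0.22 (edgeR adjusted p = 0.353) with all libraries and 0.70 ± 0.21 (adjusted p = 0.118) without Vehicle-sham 2, and 0.21 without Vehicle-sham 3. Cryab (chromosome 8, 51093441 to 51099161), a small heat shock protein abundant in lens, muscle and glia, had 27.0, 27.4, 21.5, 30.1 and 19.4 CPM in sham. In the CCI libraries it ran from 14.2 through a median of 24.4 to 44.3 CPM, on both sides of the sham range. Its log2 fold change was -0.05 ± 0.16, with an interval from -0.36 to 0.26 (1.96 SE on each side), and its sign turned without Vehicle-sham 2 (0.0097).

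Dnaja1 (chromosome 5, 55842414 to 55853326), a farnesylated J-domain protein that delivers clients to HSP70, fell. In Vehicle-sham 1 to 5 it had 265, 504, 477, 378 and 314 CPM. Vehicle-CCI had 268, 230, 342, 364 and 278 CPM, TD-CCI 224, 280, 232, 296 and 303, TCF-CCI 247, 287, 246, 358 and 238, and TNF-CCI 255, 321, 259, 296 and 174. Of the 20 CCI libraries 0 lay above the sham mean and 9 lay below every sham library, but the ranges overlapped from 265 to 364 CPM. The mean over the CCI groups was 275 ± 47.9 CPM (SD, n = 20) and in sham 388 ± 103 (n = 5). The difference was -0.50 ± 0.15 on the log2 scale (edgeR adjusted p = 0.0439). The highest sham values, 504 and 477 CPM, were those of Vehicle-sham 2 and Vehicle-sham 3, which also had the highest mitochondrial ribosomal RNA shares. Without these libraries the log2 fold change was -0.20 ± 0.17 (edgeR adjusted p = 0.588), and with that share as a covariate it was -0.30 ± 0.14 (adjusted p = 0.233). The call was also lost when Vehicle-sham 2 alone was left out (-0.36 ± 0.15, edgeR adjusted p = 0.269), and in 15 of the 25 fits that each left out 1 library, among them fits without Vehicle-sham 3 or 4 and fits without libraries of all 4 CCI groups.

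The other J-domain member, Dnajb1 (chromosome 19, 24522717 to 24526458), a stress-inducible partner of HSP70, had 24.8, 42.3, 22.9995, 36.0 and 36.4 CPM in sham. Over the CCI libraries its lowest, median and highest values were 16.9, 26.0 and 37.4 CPM. Of these libraries 7 lay below every sham library and none above, with a log2 fold change of -0.31 ± 0.15 that did not pass (edgeR unadjusted p = 0.0474, adjusted p = 0.197). It was -0.16 without Vehicle-sham 2 and -0.29 without Vehicle-sham 2 and 3.

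Hspa8 (chromosome 8, 41183397 to 41187260), which folds newly made proteins and uncoats clathrin vesicles, had 853, 1912, 1612, 1376 and 931 CPM in sham. In the CCI libraries it ran from 663 to 1442 CPM with a median of 989. The sham libraries thus spanned more than the CCI libraries did, and the 2 highest were again Vehicle-sham 2 and Vehicle-sham 3. The log2 fold change of -0.37 ± 0.17 did not pass (edgeR unadjusted p = 0.0327, adjusted p = 0.162) and was -0.18 without Vehicle-sham 2 and -0.01 ± 0.18 without both libraries. Hsph1 (chromosome 12, 5390916 to 5410224), the exchange factor of HSP70, had 149, 152, 153, 233 and 222 CPM in sham and 90.9 to 235 in the CCI libraries (median 163). Hspa4 (chromosome 10, 37408025 to 37449080), an HSP110 family exchange factor, had 178, 247, 159, 263 and 272 CPM in sham and 132 to 247 in the CCI libraries (median 190.5). For both genes the groups overlapped, with 8 and 2 of the 20 CCI libraries below every sham library. Their log2 fold changes were -0.17 ± 0.17 for Hsph1 and -0.22 ± 0.13 for Hspa4 (edgeR adjusted p = 0.59 and 0.322). Without both libraries they were -0.30 and -0.29, and Hsph1 was -0.07 without Vehicle-sham 4.

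The HSP90 isoforms differed in sign, and neither passed the test. Hsp90aa1 (chromosome 6, 129702376 to 129707907) had 2385, 3749, 5608, 3332 and 1897 CPM in sham, where Vehicle-sham 3 held the highest value of all 25 libraries. The CCI libraries ran from 1215 to 3604 CPM with a median of 2557, and the difference from sham was -0.40 ± 0.20 on the log2 scale (edgeR adjusted p = 0.219). It was -0.14 without Vehicle-sham 3, and without Vehicle-sham 2 and Vehicle-sham 3 the sign turned, to 0.04 ± 0.23. Hsp90ab1 (chromosome 9, 15432986 to 15438358) had 347, 468, 231, 407 and 475 CPM in sham, with its lowest sham value in the library where Hsp90aa1 was highest. Its CCI libraries ran from 212 to 665 CPM with a median of 382. The log2 fold change was 0.08 ± 0.22, with an interval from -0.34 to 0.51, and the sign turned with the mitochondrial ribosomal RNA share as a covariate (-0.02) and without Vehicle-sham 3 (-0.05). The ratio of Hsp90aa1 to Hsp90ab1 in CPM per kb lay at 5.77, 6.73, 20.4, 6.86 and 3.35 in the sham libraries and reached its lowest value of 1.87 in TNF-CCI 5. The sources used here do not say how reads shared with processed copies of these genes were counted, so the levels of Hspa8 and of both HSP90 genes are uncertain to that extent.

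Over the members as a group, the mean of the 4 CCI groups against sham gave 1 call of 10, Dnaja1, where 5.92% of all genes tested were called, and 3.68% were called as lower. At an unadjusted p under 0.05 there were 4 of 10 members, Hspb1 higher and Hspa8, Dnaja1 and Dnajb1 lower, where all genes gave 24.7% (9.68% higher and 15% lower). In every member the CCI and sham libraries overlapped, and over all genes 0.0807% had groups that did not overlap. The members' median log2 fold change was -0.19, with 3 of 10 above 0, and that of all genes 0.01, with 51.2% above 0. Without Vehicle-sham 2 and Vehicle-sham 3 no member was called (1 at an unadjusted p under 0.05), and the median of the members was -0.04. That fit called 0 of 21533 genes in all (3311 at an unadjusted p under 0.05, edgeR).

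**Figure D2:**
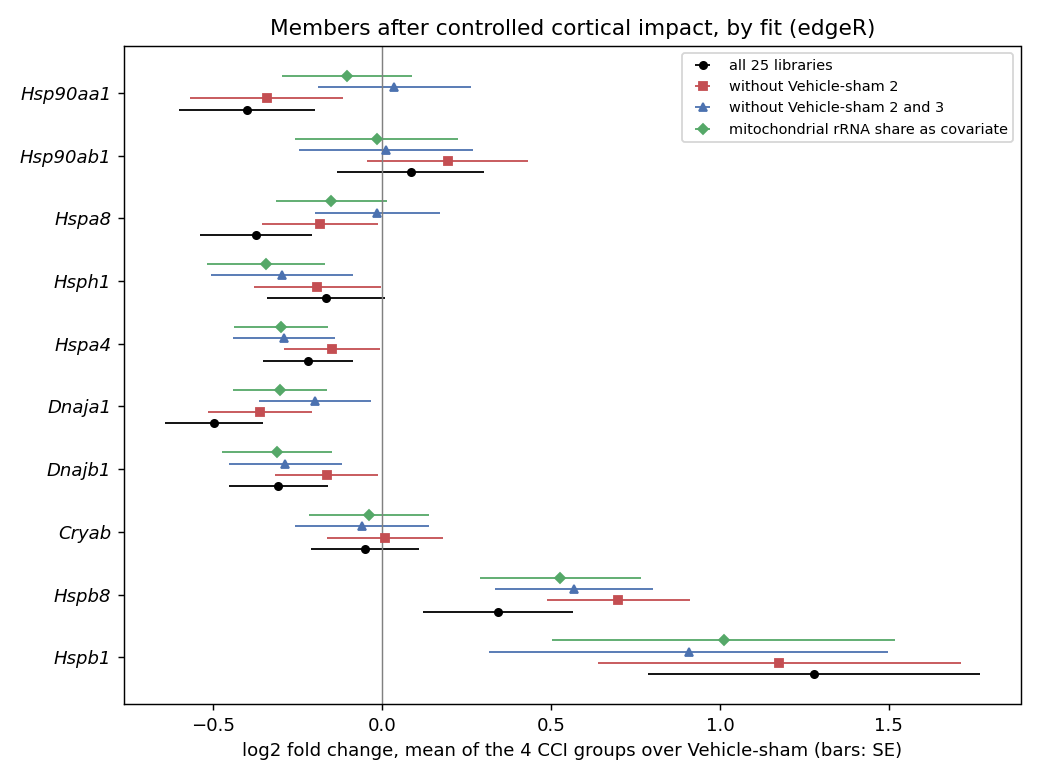
Log2 fold change of each member (x axis) for the mean of the 4 CCI groups over Vehicle-sham, with SE bars, fitted with all 25 libraries, without Vehicle-sham 2, without Vehicle-sham 2 and 3, and with the mitochondrial ribosomal RNA share as a covariate. Dnaja1 lies at -0.50 with all libraries and at -0.20 without Vehicle-sham 2 and 3, where Hspa8 lies at -0.01 and Hsp90aa1 at 0.04, while Hspb1 stays between 0.91 and 1.28 in the fits drawn.

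Each CCI group was also set against the same 5 sham libraries, so these comparisons share their controls. No member was called in any of them by edgeR. The share of all genes called was 0% in Vehicle-CCI, 0% in TD-CCI, 0.0142% in TCF-CCI and 2.57% in TNF-CCI. At an unadjusted p under 0.05 there were 1, 2, 3 and 5 members in that order, where all genes gave 12.7%, 16.5%, 18% and 20%. Hspb1 over sham had log2 fold changes of 1.20 ± 0.57 in Vehicle-CCI, 1.51 ± 0.58 in TD-CCI, 0.56 ± 0.57 in TCF-CCI and 1.84 ± 0.58 in TNF-CCI (edgeR adjusted p = 0.384, 0.218, 0.605 and 0.0769). The Vehicle-CCI value was 0.75 without Vehicle-CCI 1, its highest library. The TNF-CCI value was 1.10 without TNF-CCI 1, its highest library, and passed without Vehicle-sham 5 (2.28). Other alternatives than leaving out 1 library were also run, among them the fit without Vehicle-sham 2 and 3. Over these, Hspb1 ran from 0.83 to 1.22 in Vehicle-CCI, from 1.02 to 1.58 in TD-CCI and from 1.18 to 1.87 in TNF-CCI. Dnaja1 had -0.39, -0.54, -0.50 and -0.57 (SE 0.19 in each, edgeR adjusted p = 0.399, 0.195, 0.202 and 0.0927). In each group 0 of 5 libraries lay above the sham mean, which includes Vehicle-sham 2 and 3 at 504 and 477 CPM. Without Vehicle-sham 2 and 3 Dnaja1 had -0.24 in TD-CCI, -0.20 in TCF-CCI and -0.27 in TNF-CCI. Its Vehicle-CCI value in that fit is not reported here, so a fall with injury alone is not shown without those libraries. The mean of the 4 CCI groups in that fit was -0.20.

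Other members reached an unadjusted p under 0.05 against sham in 1 or 2 of the groups. In TNF-CCI these were Hspb8 (0.57 ± 0.27), Hspa8 (-0.54 ± 0.22) and Hsp90aa1 (-0.63 ± 0.26), with edgeR adjusted p = 0.242, 0.156 and 0.175. In TCF-CCI they were Hspa8 (-0.50 ± 0.22) and Dnajb1 (-0.54 ± 0.19), with edgeR adjusted p = 0.232 and 0.18. These values moved with the sham libraries that stood apart. Without Vehicle-sham 2 and 3, Hspa8 was -0.17 in TNF-CCI and -0.14 in TCF-CCI, Hsp90aa1 was -0.19 in TNF-CCI, and Hspb8 was 0.80 in TNF-CCI. Without Vehicle-sham 2 alone Hspa8 was -0.35 and -0.30 and Hspb8 0.93, and without Vehicle-sham 3 alone Hsp90aa1 was -0.37. The TNF-CCI calls differed between tools. DESeq2 called Hspb1 (1.85, adjusted p = 0.0352) and Dnaja1 (-0.60, adjusted p = 0.046), and limma with voom and sample weights called Hspb8 (0.82, adjusted p = 0.0467). Both tools also called more of all genes in TNF-CCI than edgeR did, which called 2.57%. Their counts are given in the closing section on processing.

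The authors' deposited table gave Hspb1 a log2 fold change over the control of 1.52 ± 0.38 in TD-CCI (adjusted p = 0.00535) and of 1.86 ± 0.57 in TNF-CCI (adjusted p = 0.0343). Its values in Vehicle-CCI and TCF-CCI in the authors' deposited table were 1.23 and 0.58 (adjusted p = 0.364 and 0.583). Hspb1 was the only member under 0.05 in the authors' deposited tables. Among genes with an adjusted p, the share under 0.05 there was 2.34% in TD-CCI and 3.53% in TNF-CCI. For Dnaja1 the authors' deposited tables gave adjusted p = 0.644, 0.192, 0.216 and 0.198 in Vehicle-CCI, TD-CCI, TCF-CCI and TNF-CCI.

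The supplements were compared with vehicle among injured animals, where sham libraries do not enter the difference. No member was called in TD-CCI, TCF-CCI or TNF-CCI over Vehicle-CCI, and 0% of all genes were called in each by edgeR. DESeq2 and voom called 0 members there too. At an unadjusted p under 0.05 there were 0, 1 and 0 members, where all genes gave 1.75%, 1.44% and 3.46%. The 1 member was Cryab in TCF-CCI, at 19.2 ± 4.03 CPM in TCF-CCI and 28.1 ± 9.36 CPM in Vehicle-CCI (SD over 5 libraries). TCF-CCI over Vehicle-CCI was -0.55 ± 0.20 on the log2 scale (edgeR unadjusted p = 0.0116, adjusted p = 1). Without Vehicle-CCI 4, the library of highest Cryab, it was -0.32. All 10 members lay below 0 in TCF-CCI over Vehicle-CCI, with a median of -0.19, where 44.4% of all genes lay above 0. The intervals of the members were wide. For Hspb1 they ran from -0.79 to 1.40 in TD-CCI, from -1.75 to 0.46 in TCF-CCI and from -0.46 to 1.73 in TNF-CCI, and for Dnaja1 from -0.52 to 0.22, from -0.48 to 0.26 and from -0.56 to 0.19.

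Between supplements no member was called. TNF-CCI over TCF-CCI gave 1.28 ± 0.57 for Hspb1 and 0.50 ± 0.20 for Cryab (edgeR unadjusted p = 0.0328 and 0.0198, adjusted p = 0.953 for both), while 5.12% of all genes had an unadjusted p under 0.05 and 0% were called. The Hspb1 value was 0.54 without TNF-CCI 1. In TNF-CCI over TD-CCI and in TD-CCI over TCF-CCI, 0 members were called and 0 had an unadjusted p under 0.05, where all genes gave 2.45% and 1.91% unadjusted and 0% called.

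Around the members, 8 lists held 71 tested genes of the wider chaperone network. With the CCI groups averaged against sham, 11 of the 71 were called lower and 0 higher, where 3.68% of all genes were called lower and 2.24% higher. Without Vehicle-sham 2 alone, 0 of the 71 were called, and of all genes 14, or 0.066%, were. Of 13 other J-domain genes 4 fell, among them Dnajc6, the neuronal auxilin that helps Hspa8 strip clathrin from vesicles (-0.65 ± 0.17, 179 against 280 CPM, edgeR adjusted p = 0.0298), and Dnajb4 (-0.44 ± 0.12, 40.6 against 54.9 CPM, adjusted p = 0.0339). Of 12 HSP90 cochaperones 2 fell, Chordc1, which binds HSP90 (-0.61 ± 0.14, edgeR adjusted p = 0.0246), and Tomm70, the mitochondrial import receptor that takes clients from HSP70 and HSP90 (-0.53 ± 0.14, adjusted p = 0.0301). Of 9 HSP70 cofactors 2 fell, the exchange factor Bag5 (-0.51 ± 0.14, edgeR adjusted p = 0.0376) and the ubiquitin ligase Stub1, also known as CHIP (-0.37 ± 0.11, adjusted p = 0.0426). Of 13 tested genes for the chaperonin TRiC and its partner prefoldin 3 fell, all of them prefoldin subunits, with Pfdn4 at -1.39 ± 0.36 and Pfdn2 at -0.65 ± 0.19 (edgeR adjusted p = 0.0324 and 0.042). Without Vehicle-sham 2 these were -0.49 and -0.26, Dnajc6 was -0.35, Dnajb4 -0.27, Bag5 -0.31 and Stub1 -0.22, while Chordc1 was -0.44 and Tomm70 -0.45. By edgeR 0 genes were called among 8 other HSP70 genes, 4 small heat shock genes, 8 mitochondrial chaperones and 4 heat shock factors, and 2, 1, 2 and 1 of them had an unadjusted p under 0.05. The smallest p in these lists belonged to Hspa13 (-0.37) and Hspa1l (-0.34), to Hspb7 (1.12) and Hspb6 (-0.14), to Hspe1 (-0.41) and Grpel1 (-0.32), and to Hsf2 (-0.34) and Hsf4 (0.45). Hspb7 lay near the floor, at 0.268 CPM in CCI and 0.112 CPM in sham, and was 2.21 without Vehicle-sham 1, where it passed (edgeR adjusted p = 0.0181). Without Vehicle-sham 2, Hspa13 was -0.21, Hspb6 -0.034, Grpel1 -0.20, Hsf2 -0.20 and Hsf4 0.27, and Hspe1 was -0.15 without Vehicle-sham 3.

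The lists' medians ran from -0.35 for the HSP70 cofactors to 0.08 for the small heat shock genes. Of the 71 genes 12 lay above 0 with all libraries and 13 without Vehicle-sham 2. Without Vehicle-sham 2 and Vehicle-sham 3 Pfdn4 turned sign (0.31), Pfdn2 was -0.016 and Chordc1 was -0.27. Of the classical genes of the heat shock response that were looked at, none passed the test with all libraries. Hspa1b, an inducible HSP70, stood at 1.05 ± 0.33 CPM over 20 CCI libraries and 1.45 ± 0.462 CPM over 5 sham libraries (log2 ratio -0.47 ± 0.24, edgeR adjusted p = 0.227). Hspa1a was not analysed here. Bag3, the inducible partner of Hspb8, had 10.6 ± 9.79 against 7.21 ± 2.18 CPM (edgeR adjusted p = 0.463), with 49.8 CPM in TNF-CCI 1, the library that also held the highest Hspb1. Its log2 ratio of 0.45 was 0.22 without that library and 0.30 without Vehicle-sham 3. Hsf1, the stress-responsive heat shock factor, differed from sham by 0.10 ± 0.18 on the log2 scale (edgeR adjusted p = 0.773), whose sign turned without Vehicle-sham 2 (-0.10). Its relative Hsf2 lay just short of the threshold (-0.34 ± 0.10, edgeR adjusted p = 0.0508) and passed by DESeq2 (adjusted p = 0.0297).

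Within groups, 2 sets of members varied together, named here after their r was seen. Each of the 45 pairs was correlated over the 25 libraries after subtracting the group mean of the log2 CPM, with permutation p-values (100000 within-group permutations) adjusted over the 45 pairs. In all, 34 pairs had r above 0, and 12 passed, all of them positive. These counts were 34 and 11 without Vehicle-sham 2. How many pairs of other genes pass by the same rule was not computed. The counts are thus not shown to be particular to the members. Some other genes came closer to a member than any member did, such as Tubb4b to Hsp90ab1 (r = 0.96, the closest of 11099 candidates). A first set held Hsp90aa1, Dnaja1 and Hspa8. Hsp90aa1 and Dnaja1 had r = 0.87 and rho = 0.92 (adjusted permutation p = 0.000225 and 0.00045), with r = 0.84 without the 2 libraries farthest from the median of the first gene. Hspa8 had r = 0.74 and rho = 0.78 with Dnaja1 (adjusted permutation p = 0.00315 and 0.00202; r = 0.66 without the 2 farthest) and r = 0.61 and rho = 0.68 with Hsp90aa1 (adjusted permutation p = 0.0281 and 0.00469; r = 0.59). The place of Hspa8 in this set depended on Vehicle-sham 2 and 3. Without them its r with Hsp90aa1 was 0.51 (adjusted permutation p = 0.0759), while with Dnajb1, Hspa4 and Hsph1 it was 0.78, 0.73 and 0.64 (adjusted permutation p = 0.00238, 0.00562 and 0.0258).

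A second set held Hspa4, Dnajb1, Hsph1 and Hsp90ab1, in which all 6 pairs passed. It too was drawn after the r were seen, so that count describes how it was chosen. Its closest pair was Dnajb1 and Hspa4 with r = 0.90 and rho = 0.87 (adjusted permutation p = 0.000225 and 0.00045; r = 0.88 without the 2 farthest), followed by Hsph1 and Hspa4 with r = 0.86 and rho = 0.81 (adjusted permutation p = 3e-04 and 9e-04; r = 0.80). The other 4 pairs of that set had r from 0.67 to 0.78. Hspa8 and Dnajb1, of different sets, had r = 0.61 and rho = 0.61 (adjusted permutation p = 0.0393 and 0.0372; r = 0.48), a pair that did not pass without Vehicle-sham 2 (r = 0.55, adjusted permutation p = 0.102). The HSP90 isoforms sat in different sets, and their own r of -0.27 did not pass. Hspb1 and Hspb8 had r = 0.57 and rho = 0.65 (adjusted permutation p = 0.0258 and 0.00832; r = 0.54), and Hspb8 with Hsp90ab1 had r = 0.57 and rho = 0.63 (adjusted permutation p = 0.0281 and 0.0118; r = 0.53).

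**Figure D3:**
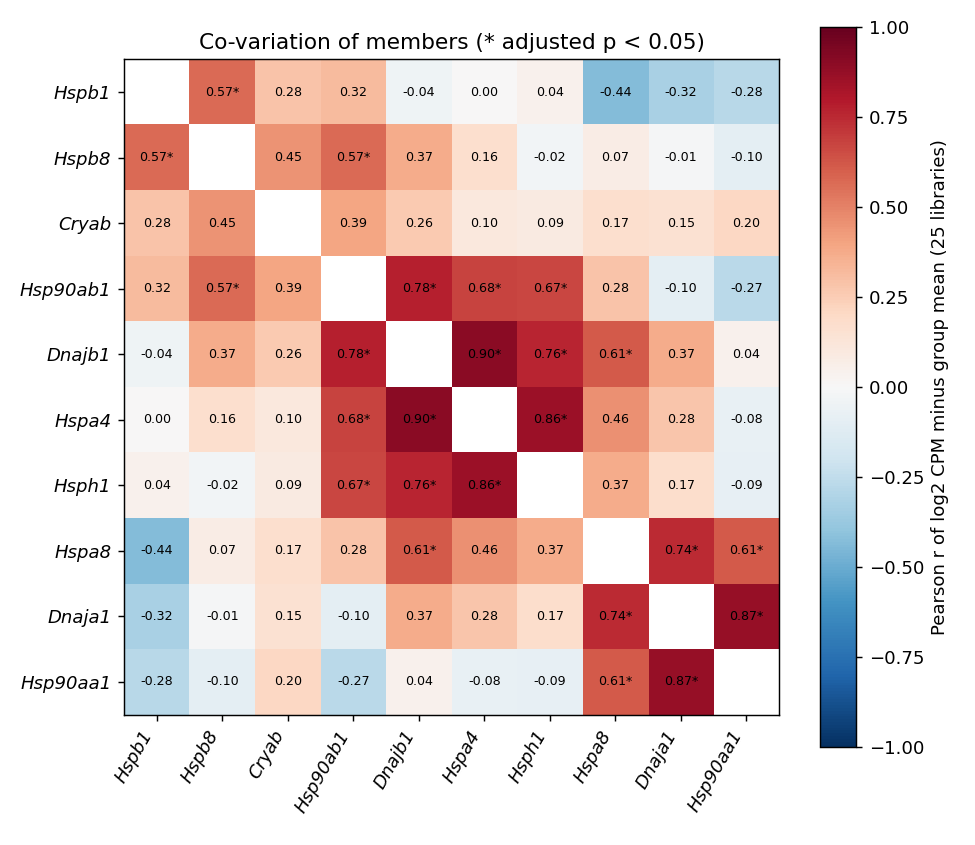
Pearson r (colour and number, from -1 in blue to 1 in red) between members over 25 libraries after subtracting the group mean of the log2 CPM, with a star where the permutation p adjusted over 45 pairs is under 0.05. The 4 genes Hsp90ab1, Dnajb1, Hspa4 and Hsph1 form a block with r from 0.67 to 0.90, Hspa8, Dnaja1 and Hsp90aa1 form another from 0.61 to 0.87, and Hsp90aa1 with Hsp90ab1 has -0.27.

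The same values were set against summed markers of 8 cell types and tissues and the mitochondrial ribosomal RNA share. Of these 90 relations 9 passed. The share of all genes that pass against the same sums was not computed. The relations below are therefore not shown to be particular to the members. In bulk tissue, fewer cells of a type and less RNA per cell cannot be told apart, and member and marker values of a library share its scale factor. Hspb1 followed the astrocyte sum with r = 0.64 and rho = 0.74 (adjusted permutation p = 0.0241 and 0.0162; r = 0.74 without the 2 farthest libraries and 0.82 without Vehicle-sham 2). It also followed the sum for microglia and macrophages with r = 0.68 and rho = 0.67 (adjusted permutation p = 0.0213 and 0.0322; r = 0.64 without the 2 farthest). Hspb8 followed the astrocyte sum with r = 0.76 and rho = 0.70 (adjusted permutation p = 0.00324 and 0.0178; r = 0.68). Cryab followed the oligodendrocyte sum with r = 0.84 and rho = 0.79 (adjusted permutation p = 0.0015 and 0.00315; r = 0.73).

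The neuron sum went with the second set. Hspa4 had r = 0.81 and rho = 0.77 (adjusted permutation p = 9e-04 and 0.0027; r = 0.75 without the 2 farthest) and Hsph1 r = 0.79 and rho = 0.70 (adjusted permutation p = 9e-04 and 0.0169; r = 0.78). Hsp90ab1 and Dnajb1 passed by r (0.74 and 0.73, adjusted permutation p = 0.00525 and 0.00324) but not by rho (0.57 for both, adjusted permutation p = 0.0815 and 0.0585). None of the first set, Hsp90aa1, Dnaja1 and Hspa8, passed with any marker sum. Hsph1 went against the mitochondrial ribosomal RNA share with r = -0.54 and rho = -0.57 (adjusted permutation p = 0.0241 and 0.0472; r = -0.57 without the 2 farthest). Without Vehicle-sham 2, Hspa4 and Hsp90ab1 also passed against this share by r (-0.65 and -0.56, adjusted permutation p = 0.00877 and 0.022). Hsp90aa1 and Dnaja1 had positive r with it over all libraries, 0.64 and 0.52, which did not pass (adjusted permutation p = 0.151 and 0.229).

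Marker levels by group were as follows. The neuron sum had medians of 7144 CPM in sham and 3573, 4981, 4185 and 5108 CPM in Vehicle-CCI, TD-CCI, TCF-CCI and TNF-CCI, with a sham range of 4079 to 8185. Of 9 neuron markers 1 was called lower and 0 were called higher with the CCI groups averaged. Marker calls given here are from the fit with all 25 libraries, where 2.24% of all genes were called higher and 3.68% lower. Without Vehicle-sham 2 and Vehicle-sham 3, 0 of all genes were called, so none of these marker calls remained. The astrocyte sum had medians of 5970 CPM in sham and 7263, 7798, 7785 and 8826 CPM in the same order, with 13986 in TNF-CCI 1, and 2 of 9 astrocyte markers were called higher. Of these 9 markers 5 lay above 0 with the CCI groups averaged, with a median log2 fold change of 0.06. In Vehicle-CCI over sham 4 of 9 lay above 0 (median -0.02). The sum thus did not follow all of its markers alike. The sum for microglia and macrophages had medians of 171 CPM in sham and 314, 343, 295 and 378 CPM, with 7 of 10 markers called higher. Of 9 oligodendrocyte markers 0 were called, and their sum ran from 11005 to 19054 CPM in sham and from 7764 to 27270 in the CCI libraries. No marker of these 4 lists was at 0 in any library. Both mitochondrial ribosomal RNA genes were called lower, with a median of -1.23, and of 5 red cell genes 1 was called lower, with a median of -1.10 and 0 above 0. The mitochondrial ribosomal RNA sum was 398139 CPM in Vehicle-sham 2 and 214610 CPM in Vehicle-sham 3. Its median was 71462.5 CPM in sham and 77195.2, 64167.5, 66314.9 and 30732.8 CPM in the CCI groups, in the order above. The red cell sum was 1590.67 CPM in Vehicle-sham 2, against a sham median of 325.432 CPM. The part of the cell type and red cell markers in the members' differences from sham was not tested.

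**Figure D4:**
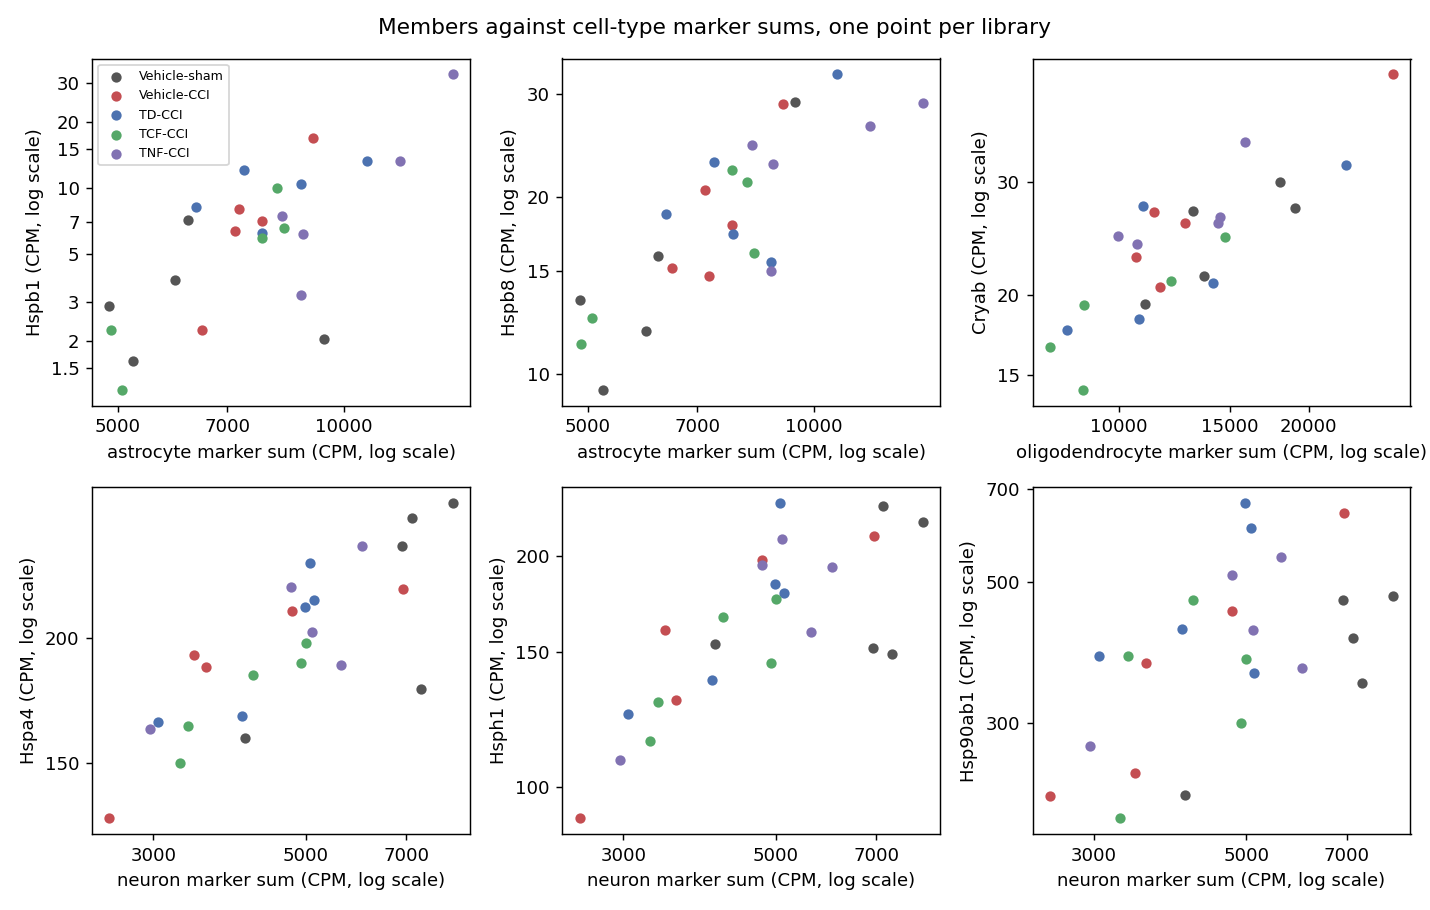
CPM of a member (y axis, log scale) against the summed CPM of a cell type's markers (x axis, log scale), 1 point per library coloured by group, for Hspb1 and Hspb8 against astrocytes, Cryab against oligodendrocytes, and Hspa4, Hsph1 and Hsp90ab1 against neurons. TNF-CCI 1 has both the highest Hspb1 (33.0 CPM) and the highest astrocyte sum (13986 CPM), and Vehicle-CCI 4 both the highest Cryab (44.3 CPM) and the highest oligodendrocyte sum (27270 CPM).

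The genes closest in pattern to each member were sought among 11099 other genes with a mean of at least 10 CPM, by the r of group-centred log2 CPM over the 25 libraries, and are given as a description. Hspb1 was closest to Gfap, the intermediate filament of astrocytes (r = 0.89), then to the receptor gene Tnfrsf1a (0.88) and Pdlim4 (0.86). Hspb8 was closest to Tmed10 (0.90), a carrier of the early secretory pathway, and Cryab to the transcription factor Pou3f3 (0.81). In the first set, Hspa8 was closest to Ndn (0.94), Dnaja1 to Ranbp6 (0.95) and Hsp90aa1 to LOC680491 and to Hspe1, the mitochondrial HSP10 (0.94 for both). In the second set, Hsp90ab1 was closest to the tubulin gene Tubb4b (0.96), Dnajb1 to Derl1 (0.93), a factor of protein export from the endoplasmic reticulum, Hspa4 to Rtn4rl1 (0.92) and Hsph1 to Dnajb11 (0.92), a J-domain protein of the endoplasmic reticulum. The values of Hspb1 with Gfap, Hsp90ab1 with Tubb4b and Dnaja1 with Ranbp6 were 0.89, 0.97 and 0.94 without Vehicle-sham 2.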

How the data were processed

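The authors deposited whole-number read counts per gene with gene positions and lengths, 1 column per library, and for each CCI group a table with a log2 fold change and DESeq2 p-values over the control, per the file headers. Per the submitters' processing notes, STAR, Salmon, featureCounts and DESeq2 were used with the genome build mRatBN7.2. Their versions and any strand setting are not given in the sources used here. Overlapping, antisense and near-identical genes are uncertain. Of 34322 genes, 7 with empty cells were left out, and 0 per-sample columns were unused.

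All 25 libraries entered 1 edgeR 4.0.16 fit (R 4.3.3) with a mean per group, TMM factors, filterByExpr by group and robust quasi-likelihood F tests. P-values were two-sided and adjusted by the Benjamini-Hochberg method over 21064 genes, with a threshold of 0.05. CPM values are TMM-scaled, and log2 CPM values for correlations had a prior count of 2. Fold changes give the first-named group over the second with their SE. The mean of the 4 CCI groups is the unweighted mean of the group coefficients. Chi-square per degree of freedom between libraries of 1 group ran from 25.7 to 776, where counting error alone gives about 1, so none was a repeat of another. The value is pooled over genes, so depth was not what limited precision for well-counted genes. For genes near the floor, such as Hspb7, it does not show this. That check covers counting error only, because the reads carry no molecular identifiers in these files.

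The members, the gene lists and the tests were chosen with earlier results of these data known. Named beside the members are the 2 genes of smallest p in each chaperone list, Hspa1b, Bag3 and Hsf1, and the genes of highest r with each member. Alternatives were DESeq2 1.42.0, limma 3.58.1 with voom and sample weights, DESeq2 size factors, 2 other filters, only the groups compared, a replicate block, a mitochondrial ribosomal RNA covariate, leaving out each library, leaving out Vehicle-sham 2 and 3, and, added after seeing the data, leaving out 4 libraries. The edgeR fit was tested on simulated counts, for the mean of the CCI groups against sham only. Promoters are from RefSeq on GRCr8, whose coordinates are kept apart from those of mRatBN7.2.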

Additional observations from a re-analysis of the deposited data

Results flagged for a closer look

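Cryab in Vehicle-CCI 4, at 44.3 CPM, stood far above the other libraries of its group, of which the next had 26.9 and the lowest 20.6 CPM, so that the gap was 0.732 of the group's range. Cryab in TNF-CCI 5, at 34.7 CPM, stood above the next library at 26.5 and the lowest at 24.1 CPM, with a gap of 0.775 of the range. Both libraries had the highest oligodendrocyte marker sum of their group, 27270 and 15839 CPM, and the part of that sum in these values was not tested. Dixon's test was run on 50 groups of 5 values (10 members in 5 groups) with a critical value of 0.71, and chance alone marks about 1 in 20 such groups.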

How the results depend on the processing

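With the CCI groups averaged against sham, the count of members called was 1 with DESeq2 size factors, with either other filter, with DESeq2 and with the replicate block. It was 0 with limma voom and sample weights, with the mitochondrial ribosomal RNA share as a covariate, without Vehicle-sham 2 and 3, and without 4 libraries (those and Vehicle-CCI 3 and TD-CCI 4, with the highest choroid plexus and thalamus marker sums). Leaving out each library in turn gave 0 to 1 members, with 0 in 15 of 25 fits: without Vehicle-sham 2, 3 or 4, without Vehicle-CCI 1, 2 or 5, and without replicate 1, 3 or 5 of TD-CCI, TCF-CCI or TNF-CCI. The called gene was Dnaja1. Its log2 fold change was -0.38 with voom (adjusted p = 0.083), -0.30 with the covariate, -0.20 without Vehicle-sham 2 and 3 and -0.22 without 4 libraries (adjusted p = 0.517), and from -0.60 to -0.36 with 1 library left out. In TNF-CCI over sham the members called were 2 with DESeq2 and 1 with voom, and 0 to 2 with 1 library left out: 2 (Hspb1 and Dnaja1) without TNF-CCI 2, and 1 without Vehicle-sham 1 (Dnaja1), Vehicle-sham 5 (Hspb1) or TNF-CCI 4 (Hspb1). The counts of members called in the other 9 comparisons did not move under any alternative run.

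Signs turned for 6 of the genes named. With 1 library left out, Cryab ran from -0.13 to 0.0097 and Hsp90ab1 from -0.051 to 0.19. Without Vehicle-sham 2 and 3, Hsp90aa1 was 0.037, Pfdn4 0.31, Hspe1 0.054 and Hsf1 -0.10. Without 4 libraries these were 0.0065, 0.28, 0.031 and -0.082. With the covariate, Hsp90ab1 was -0.016, Pfdn4 0.048 and Hsf1 -0.11. Hsf1 was -0.076 with voom and ran from -0.10 to 0.18 with 1 library left out. The cause was not tested. Over all genes the averaged comparison called 1248, against 168 with the covariate, 14 without Vehicle-sham 2 and 0 without Vehicle-sham 2 and 3 or without 4 libraries (3311 and 3549 at an unadjusted p under 0.05). DESeq2 called 2414 with all libraries, and edgeR with no filter 2070. In Vehicle-CCI, TD-CCI, TCF-CCI and TNF-CCI over sham edgeR called 0, 0, 3 and 542 genes and DESeq2 247, 263, 226 and 1455. In TNF-CCI voom called 946, the covariate left 103, the 2 groups alone gave 197, and 0 were called without Vehicle-sham 2 and 3 (2961 at an unadjusted p under 0.05).

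Replicate numbers were not taken as pairs, since the labels give them no shared source. Of 50 same-numbered pairs 27 had a correlation over 0.1 (range -0.32 to 0.44). The median was 0.12, against -0.02 for other numbers, and 13 of 25 libraries were closest to their own number, a hint of pairing from the data and not from the design. The correlations between members and with marker sums were not run with a replicate block. Their permutations treat the libraries of a group as exchangeable, so deviations shared by replicate number may enter those p-values. With the replicate block the count of members called did not change in any comparison. All-gene calls went from 1248 to 1863 with the CCI groups averaged and from 542 to 1190 for TNF-CCI over sham, and Grpel1 (-0.32, adjusted p = 0.0413) and Hsf2 (-0.32, adjusted p = 0.035) passed. A fit of only the groups compared could not be had for the mean of the CCI groups, which uses all groups.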
